A study of Mus musculus with 22 samples.

Results

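The 9 genes described here sense, move and export sterol, and were followed in mouse CD8+ T cells: Srebf1, Srebf2, Scap, Insig1, Insig2, Stard4, Abca1, Abcg1 and Mylip. They were matched by gene symbol to the deposited gene list. All 9 were found and all 9 passed the filter on low counts, among 21183 genes tested and 46603 genes in the count table. Bulk RNA sequencing gave 22 libraries in 8 groups of genotype and time. Naive CD8+ T cells, taken from spleen and lymph nodes by magnetic depletion of other cells, were taken for sequencing at once (naive) or stimulated for 24 h or 48 h with plate-bound anti-CD3 at 2 µg/ml and soluble anti-CD28 at 1 µg/ml. KI cells came from homozygous Cre-carrying mice of the line Tcaim KI Cd4Cre (3 mice, at naive, 24 h and 48 h). wt cells came from mice of that same line with the genotype wtcre, so that the controls carry Cre too (3 mice, at naive, 24 h and 48 h). The libraries labelled KO came from homozygous Cre-carrying mice of the separate line Tcaim KO Cd4Cre (2 mice, at naive and 48 h). Cd4Cre is a Cre driven by Cd4 regulatory sequence, which is active in developing T cells, including those that become CD8+ cells. Mice were processed in 3 experiments, numbered 1, 3 and 5, each with 1 KI and 1 wt mouse. Experiments 1 and 5 also held 1 KO mouse each. The KI and wt mice of experiments 1 and 3 were male, those of experiment 5 were female, and both KO mice were female. The age of the mice was not given in the sources used here. No wt mice of the KO line were analysed here, so for KO against wt the line and the genotype cannot be told apart. Sex was not balanced in that comparison either.

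SREBP transcription factors are made as precursors held in the endoplasmic reticulum membrane. When membrane sterol is low, the escort protein SCAP carries them to the Golgi, where they are cut to release the active factor. When sterol is ample, INSIG proteins hold SCAP and the precursor back. Active SREBP2 (gene Srebf2) drives genes of cholesterol synthesis and uptake, and SREBP1 (Srebf1) drives mainly genes of fatty acid synthesis. LXR receptors (Nr1h2 and Nr1h3) answer oxysterols and raise the exporters Abca1 and Abcg1 and the ubiquitin ligase Mylip, also called IDOL, which limits sterol uptake by sending lipoprotein receptors to degradation. T cells that are activated to divide need sterol for new membrane, and in such cells SREBP activity rises while LXR activity falls.

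Upstream sequence is shown for 3 of the genes, Insig1 for the sensing side and Abca1 and Mylip for the efflux side, because these 3 changed most clearly in opposite directions among members with an entry in the promoter table. Sequences are from RefSeq, build GRCm38.p6, 5′ to 3′ on the gene's strand, ending before the first annotated start site. Capitals mark matches, on either strand, to CACGTG (the E-box, a core that SREBP and USF factors can bind) and CCAAT (the core bound by NF-Y, a partner of SREBP, read ATTGG on the other strand).
Insig1, chr5:28071162-28071362, plus strand: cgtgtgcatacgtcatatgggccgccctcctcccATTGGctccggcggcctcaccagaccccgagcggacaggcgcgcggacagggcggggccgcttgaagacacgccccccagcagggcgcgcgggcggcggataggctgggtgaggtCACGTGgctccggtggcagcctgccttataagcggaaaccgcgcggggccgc
Abca1, chr4:53159896-53160145, minus strand: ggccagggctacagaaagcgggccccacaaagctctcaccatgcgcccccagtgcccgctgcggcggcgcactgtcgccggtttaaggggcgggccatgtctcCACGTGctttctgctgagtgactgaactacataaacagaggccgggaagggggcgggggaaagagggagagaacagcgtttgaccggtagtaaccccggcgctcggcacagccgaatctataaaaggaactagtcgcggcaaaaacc
Mylip, chr13:45389492-45389741, plus strand: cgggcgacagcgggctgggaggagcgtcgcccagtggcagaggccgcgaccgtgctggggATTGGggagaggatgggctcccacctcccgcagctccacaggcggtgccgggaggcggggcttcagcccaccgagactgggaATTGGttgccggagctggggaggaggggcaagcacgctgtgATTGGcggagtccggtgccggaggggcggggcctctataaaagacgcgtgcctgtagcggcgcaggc
Searches covered 300 bases at each annotated start (250 before and 50 after) on both strands, and of the 9 genes 7 had entries, with 12 start sites in all. Distances count from the RefSeq start site, which for Insig1 lies downstream of the stretch shown. The E-box occurred 101 bases before the Insig1 start site and 147 bases before that of Abca1, and 7.15% of all 32851 promoters held it. Among the genes not shown, the Scap windows held it too. CCAAT occurred once in the Insig1 window and 3 times in that of Mylip, where 37.4% of all promoters held it. It also occurred in windows of Insig2, Srebf1 and Srebf2. The sterol regulatory element core TCACNCCAC, held by 1.24% of all promoters, had no match in any of the 12 windows. LXR binds 2 direct repeats of AGGTCA spaced by 4 bases. No window held this form with up to 2 mismatches, which 3.02% of all promoters held. The Abca1 stretch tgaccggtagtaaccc, read on the other strand, resembles such a repeat but has more mismatches than this limit, so it was not counted. No match means only that these letters are not in these windows. The GC box GGGCGG, held by 35.7% of all promoters, had 3 matches in the Insig1 window, 2 in that of Abca1 and 1 in that of Mylip. Windows of Insig2, Scap, Srebf1 and Srebf2 held it as well.

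Total counts per library lay between 62551905 and 93489115. Tcaim, the targeted gene, read 138 to 260 CPM (each count relative to the TMM-scaled total of its library) in the 9 KI libraries against 8.38 to 15.2 CPM in the 9 wt libraries. The 4 libraries labelled KO read 5.99 to 19.6 CPM, and edgeR's quasi-likelihood test found no lower Tcaim in them than in wt (naive, difference 0.21, adjusted p = 1; 48 h, difference -0.19, adjusted p = 0.841). Replicate 1 of KO at 48 h stood apart: with replicate 5 left out, so that it alone stood for KO, 4765 genes differed from wt at 48 h, against 6 with both libraries. Levels in KO at 48 h are therefore given for each library. CD8 T cell markers (Cd3e, Cd3d, Cd8a, Cd8b1 and Trac) summed to between 2160 and 4450 CPM in all groups. Macrophage and monocyte markers (all 6 of 6 found) were each detected in at least 1 library of every group. They summed to 103 to 231 CPM in naive wt, 23.8 to 41.2 CPM at 24 h and 20.3 to 32 CPM at 48 h. Lyz2 and Csf1r were the highest of them in naive wt. In wt at 48 h the highest were Csf1r (11.2 to 18.8 CPM) and Cd68 (6.17 to 11.4 CPM). In bulk RNA, fewer cells of a type and less RNA per cell cannot be told apart.

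In wt cells the system moved in opposite directions on its 2 sides. By 48 h the SREBP genes Srebf1 and Srebf2, both Insig genes and the sterol carrier Stard4 were higher than in naive cells, and the 3 LXR-driven genes Abca1, Abcg1 and Mylip were lower. Of the 9 genes, 8 were called at 48 h (5 higher, 3 lower), and Scap was not. A gene is called here when edgeR's Benjamini-Hochberg adjusted p over all 21183 genes is under 0.05. Activation changed much of the transcriptome, and 56.3% of all genes tested were called in the same comparison, so the share among the 9 stands against that background. At 24 h, 4 of the 9 were called (Stard4 higher; Abca1, Abcg1 and Mylip lower), where 48.3% of all genes were. Between 24 h and 48 h, 4 were called (Insig2 and Stard4 higher; Abca1 and Mylip lower), where 7.49% of all genes were. This last count was 1 without wt replicate 1, 2 without wt replicate 5 and 3 when only the compared groups were fitted.

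**Figure D1:**
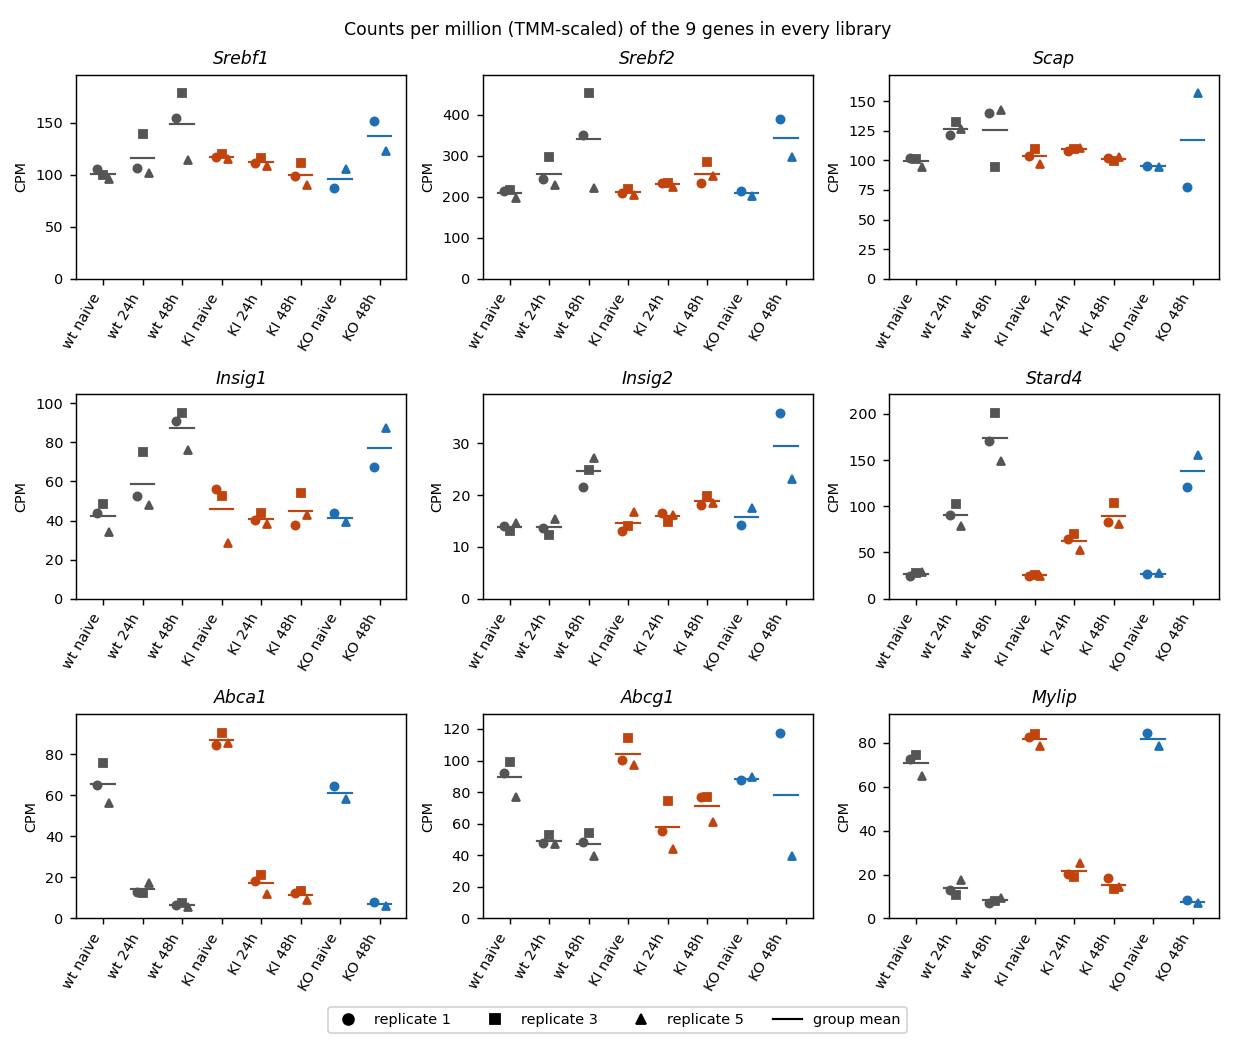
CPM (TMM-scaled library sizes, linear axis from 0) of the 9 genes in each of the 22 libraries, by genotype and time; marks give the replicate and horizontal lines the group mean. Stard4 rises from 24.8 to 29.2 CPM in naive wt libraries to 149 to 201 CPM at 48 h, and Abca1 and Mylip fall in every genotype.

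Srebf1 (chr11:60199089-60222581, GRCm38, as all gene positions here) encodes both SREBP1 isoforms. It read 105.6, 99.8 and 95.8 CPM in naive wt replicates 1, 3 and 5, then 106.7, 139.6 and 101.7 CPM at 24 h, and 154.3, 178.4 and 113.9 CPM at 48 h. The 48 h libraries were all above the naive ones, although replicate 5 rose least. The change from naive to 48 h was 0.57 on the log2 scale (SE 0.151, adjusted p = 0.00366, n = 3 against 3). With upper-quartile scaling it was 0.35 with an adjusted p of 0.057. Of the Srebf1 exons, 175 bases are shared with Rai1 on the opposite strand and with Mir6922, and whether counting used strand is not given in the sources used here.

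Srebf2 (chr15:82147181-82205379) was the most abundant of the 9 per length in all 8 groups. It read 213.2, 217.3 and 197.7 CPM in naive wt, 243.1, 295.7 and 227.8 CPM at 24 h, and 349.8, 452.3 and 221.3 CPM at 48 h. The 3 libraries of 48 h differed by a wide margin, and replicate 5 stood only slightly above its own naive and below its own 24 h library. The change at 48 h was 0.70 (SE 0.179, adjusted p = 0.00268). Scap (chr9:110333288-110384950), the escort, read between 94.2 and 102.3 CPM in naive wt, 121.4 to 132.2 CPM at 24 h and 94.4 to 142.1 CPM at 48 h. The changes of 0.35 at 24 h (95% confidence interval -0.03 to 0.73) and 0.34 at 48 h (-0.04 to 0.72) did not pass the test. Fitted on the compared groups alone, the 24 h change passed (0.33, adjusted p = 0.00883). Without wt replicate 3, which had the lowest Scap value of the wt libraries at 48 h, the 48 h change was 0.52 (adjusted p = 0.0483). Scap shares 985 exon bases with 5830462I19Rik on the opposite strand.

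The 2 Insig genes, which encode the proteins that retain SCAP, were both higher in wt at 48 h than in naive cells. Insig1 (chr5:28071363-28078662), itself a classical SREBP target, read 43.7, 48.5 and 34.1 CPM in naive cells, 52.7, 74.9 and 47.8 CPM at 24 h, and 91.1, 95.1 and 76.3 CPM at 48 h. Every library was above that of the same experiment at the earlier time. The change was 0.47 at 24 h (SE 0.222, adjusted p = 0.0855). By 48 h it had reached 1.05 (SE 0.223, adjusted p = 0.000582). With the experiment as a replicate block, Insig1 passed at 24 h (0.46, adjusted p = 0.0381) and between 24 h and 48 h (0.60, adjusted p = 0.0439). Insig2 (chr1:121304353-121332589) read 13.98, 13.01 and 14.7 CPM in naive cells and 13.7, 12.3 and 15.4 CPM at 24 h, with the groups overlapping. It then stood at 21.7, 24.9 and 27.2 CPM at 48 h, above all 6 earlier libraries. Its change from 24 h to 48 h was 0.83 (SE 0.157, adjusted p = 0.00343).

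Stard4, a soluble carrier that moves cholesterol between membranes and is an SREBP2 target, had the largest rise of the 9. It read 24.8, 27.4 and 29.2 CPM in naive wt, 90.4, 102.0 and 78.3 CPM at 24 h, and 170.5, 201.0 and 149.2 CPM at 48 h. No 2 of these groups overlapped. The change was 1.73 at 24 h (SE 0.149, adjusted p = 3.45e-08). By 48 h it was 2.68 (SE 0.154, adjusted p = 1.76e-10), a 6.39-fold rise. Among all tested genes, those whose log2 CPM followed Stard4 most closely over the 22 libraries included Ube2t (Pearson r = 0.991) and Phf10 (0.985). After the mean of each time point was removed they included Sc5d (0.934) and Lss (0.918), which encode enzymes of cholesterol synthesis. These correlations describe libraries that share mice and experiments.

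**Figure D2:**
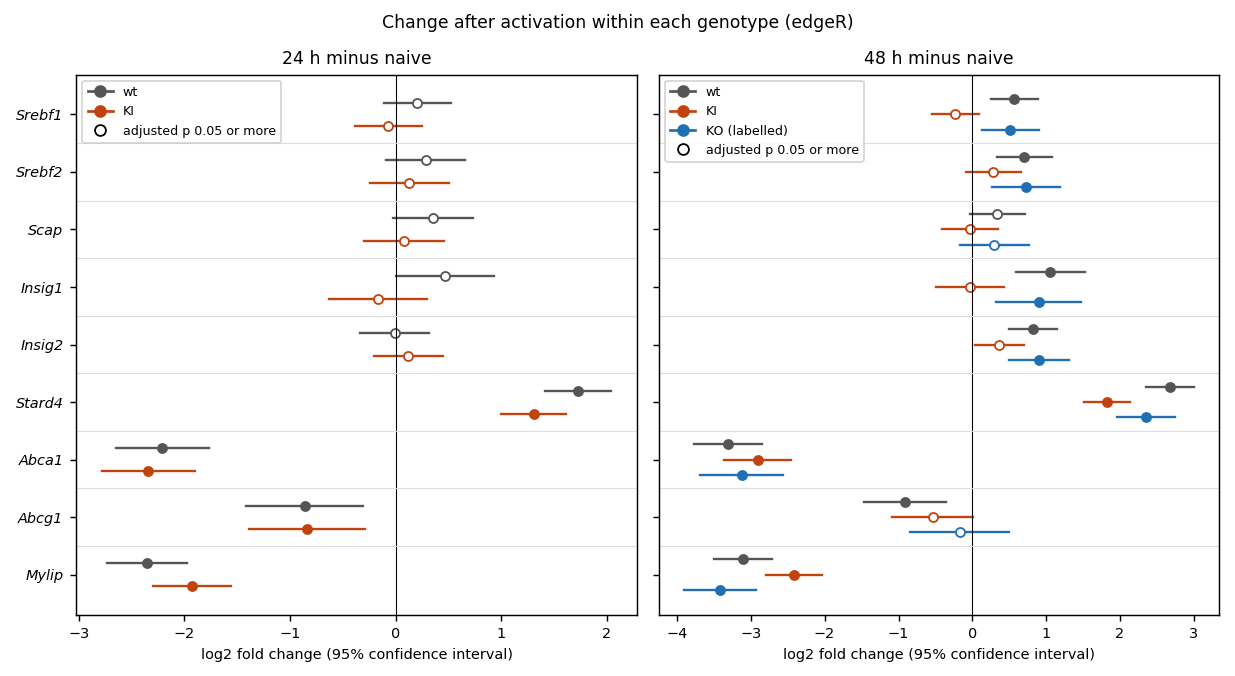
Log2 fold change against naive cells of the same genotype at 24 h and 48 h, with 95% confidence intervals; filled marks have an edgeR adjusted p under 0.05. Stard4 lies to the right and Abca1 and Mylip to the left in all 5 comparisons, and Srebf1, Srebf2 and Insig1 are filled at 48 h in wt and KO and open in KI.

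On the efflux side, Abca1 (chr4:53030787-53159895), the exporter that loads cholesterol onto lipid-poor apolipoprotein, read 64.8, 75.5 and 56.4 CPM in naive wt, 12.9, 12.4 and 17.2 CPM at 24 h, and 6.63, 7.47 and 5.70 CPM at 48 h. The groups were fully separated at each step. The change at 48 h was -3.31 (SE 0.221, adjusted p = 8.61e-10). Mylip (chr13:45389742-45412022) read 72.5, 74.4 and 65.0 CPM in naive wt, 12.99, 10.8 and 17.7 CPM at 24 h, and 6.96, 8.17 and 9.48 CPM at 48 h. Its change at 48 h was -3.11 (SE 0.186, adjusted p = 2.83e-10). At 24 h the changes already stood at -2.21 for Abca1 and -2.35 for Mylip. For Abcg1 (chr17:31057675-31117988), which exports cholesterol to mature lipoprotein, 91.9, 99.2 and 76.9 CPM in naive wt became 47.8, 52.6 and 47.0 CPM at 24 h and 48.2, 54.3 and 39.7 CPM at 48 h. The 24 h change was -0.86 (SE 0.264, adjusted p = 0.0116). The 48 h change was -0.92 (SE 0.264, adjusted p = 0.00665). Without wt replicate 1 the adjusted p was 0.0883 at 24 h and 0.0527 at 48 h, and without wt replicate 3 it was 0.071 at 24 h. Macrophages are rich in both exporters. Their summed markers fell from 103 to 231 CPM in naive wt to 20.3 to 32 CPM at 48 h. Among them, Lyz2 fell from 44 to 134 CPM to 0.131 to 2.16 CPM, and Itgam from 11.5 to 28.7 CPM to 0.453 to 1.96 CPM. Csf1r fell less, from 30.3 to 48.4 CPM to 11.2 to 18.8 CPM. Cd68 also fell less, from 12.5 to 14.8 CPM to 6.17 to 11.4 CPM. Summed B cell markers fell as well, from 210 to 362 CPM in naive wt to 39.6 to 119 CPM at 48 h. The part of either cell type in the fall of Abca1, Abcg1 and Mylip was not tested. Over the 22 libraries the gene most like Mylip was L1cam (r = 0.99), and the one most like Abca1 was Rhobtb2 (r = 0.983).

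Per length, the ranking of the 9 genes changed with activation (deposited FPKM, which divides by gene length and so allows levels of different genes to be compared). In naive wt cells Srebf2 came first at 49.9 ± 2.87 FPKM (SD, n = 3), followed by Mylip at 27.4 ± 2.13 and Abcg1 at 26.1 ± 3.55, whose ranges overlapped. Srebf1 followed at 21.2 ± 1.08, then Insig1 at 16.2 ± 2.95 and Scap at 15.9 ± 0.80, which also overlapped. Abca1 (7.53 ± 1.17), Stard4 (5.78 ± 0.47) and Insig2 (4.76 ± 0.25) came last, without overlap between neighbours. At 48 h Srebf2 (76.4 ± 25.6) still came first, but Stard4 (34.7 ± 5.03), Insig1 (31.6 ± 3.49) and Srebf1 (29.5 ± 6.36) came next with overlapping ranges. Abcg1 stood at 13.02 ± 1.96, Mylip at 3.00 ± 0.46 and Abca1 at 0.711 ± 0.093, the lowest of the 9. In KI at 48 h, Srebf2 (57.0 ± 6.06) was followed by Srebf1 (19.7 ± 2.31), Abcg1 (19.5 ± 2.62), Stard4 (17.7 ± 2.60) and Insig1 (16.1 ± 3.17), whose ranges overlapped. The length behind these FPKM values was 55.7% of the annotated exon length for Abcg1 and 69.5% for Srebf2. With the annotated length Srebf2 kept the first place in every group, and Abcg1 fell to rank 6 in naive wt and rank 7 at 48 h.

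**Figure D3:**
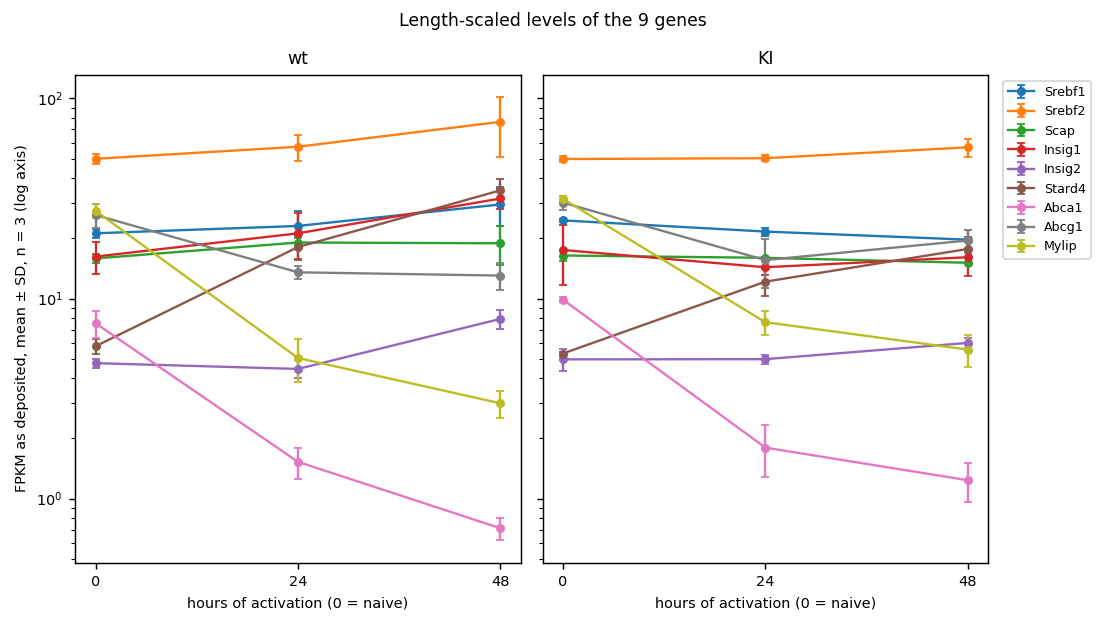
Deposited FPKM (mean ± SD, n = 3 libraries, log axis) of the 9 genes against hours of activation in wt and KI. In wt, Stard4 climbs from rank 8 to rank 2 while Mylip drops from rank 2 to rank 8; in KI at 48 h Stard4 holds rank 4 and Mylip rank 8.

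KI cells before stimulation differed little in these genes. None of the 9 was called between naive KI and naive wt by edgeR, DESeq2 or limma. Over all genes edgeR called 0.113%, DESeq2 57 genes and limma 31 genes. None of the 9 and 434 of all 21183 genes had an unadjusted edgeR p under 0.05. Abca1 read 84.4, 90.4 and 85.4 CPM in naive KI, all above the wt libraries, with a difference of 0.40 (95% confidence interval -0.02 to 0.82). Mylip (82.7, 83.8 and 78.5 CPM) and Srebf1 (116.6, 120.2 and 115.1 CPM) were also above every wt library in naive cells, with differences of 0.21 and 0.22 whose intervals included 0. Groups failed to overlap in this comparison for 10.6% of all genes. At 24 h again none of the 9 was called between KI and wt by any of the 3 tools. Over all genes edgeR called 0.00472%, DESeq2 57 genes and limma 1 gene. The unadjusted edgeR p was under 0.05 for 3 of the 9 and for 1903 of all 21183 genes. At that time Stard4 read 64.8, 69.6 and 52.3 CPM in KI, below all 3 wt libraries, with a difference of -0.54 (95% confidence interval -0.84 to -0.23, adjusted p = 0.379). Mylip read 20.3, 19.01 and 25.03 CPM in KI, above all 3 wt libraries, with a difference of 0.63 (95% confidence interval 0.27 to 0.995, adjusted p = 0.379). Insig1 and Scap were also below every wt library at 24 h, and 20.2% of all genes failed to overlap between KI and wt at that time.

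Within KI cells, activation raised Stard4 and lowered Abca1 and Mylip at both times. At 24 h the called genes were Stard4 (1.31), Abca1 (-2.34), Abcg1 (-0.84) and Mylip (-1.93), 4 of 9 where 38.7% of all genes were called. Those 4 were also the 4 called in wt at 24 h. Abcg1 missed the threshold without KI replicate 1 (adjusted p = 0.103) and without KI replicate 5 (adjusted p = 0.126). At 48 h, 3 of 9 were called (Stard4 higher; Abca1 and Mylip lower), where 48.6% of all genes were. Srebf1 (-0.23, 95% confidence interval -0.55 to 0.09), Insig1 (-0.03, -0.49 to 0.43) and Srebf2 (0.28, -0.09 to 0.66) did not pass. With each mouse as a replicate block within KI, 7 of 9 were called at 48 h, adding Srebf1 (-0.29, adjusted p = 0.0086), Srebf2 (0.23, 0.0301), Insig2 (0.31, 0.0365) and Abcg1 (-0.60, 0.000496). With the experiment as a block over all groups, Abcg1 was the only addition (-0.55, adjusted p = 0.0425). Between 24 h and 48 h in KI none of the 9 was called by edgeR, where 2.68% of all genes were called. An unadjusted p under 0.05 was found for 3 of the 9 and for 3288 of all 21183 genes. For Stard4 that step was 0.52 (adjusted p = 0.0634). It was called with the experiment block (0.52, adjusted p = 0.0281), and DESeq2 and limma each called 1 of the 9. With the mouse block Stard4 (0.54, adjusted p = 0.00504), Abca1 (-0.54, 0.0295) and Mylip (-0.47, 0.0306) were called.

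At 48 h the 2 genotypes differed on both sides of the system. KI cells held less Stard4, Insig1 and Srebf1 and more Abca1 and Mylip than wt cells. Of the 9 genes 5 were called, where 4.17% of all genes were. Groups did not overlap for 7 of the 9 (Srebf1, Insig1, Insig2 and Stard4 lower in KI; Abca1, Abcg1 and Mylip higher), where 20.6% of all genes failed to overlap.

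Stard4 read 82.9, 103.3 and 81.2 CPM in KI at 48 h, against 170.5, 201.0 and 149.2 CPM in wt. The difference was -0.96 (SE 0.146, 95% confidence interval -1.27 to -0.66, adjusted p = 0.00116), or 0.514 of the wt level. Within experiments 1, 3 and 5 it was -1.04, -0.96 and -0.88. The KI values at 48 h lay in the range of wt at 24 h (78.3 to 102.0 CPM) with 1 library just above it. Insig1 read 37.6, 54.2 and 42.8 CPM in KI against 91.1, 95.1 and 76.3 CPM in wt, a difference of -0.96 (SE 0.223, adjusted p = 0.0188). The KI libraries at 48 h lay within the naive KI range of 28.6 to 56.2 CPM. Srebf1 read 98.6, 111.6 and 90.0 CPM in KI against 154.3, 178.4 and 113.9 CPM in wt, a difference of -0.57 (SE 0.151, adjusted p = 0.0371), with the highest KI library just below the lowest of wt. Insig2 (18.2, 19.9 and 18.4 CPM in KI) differed by -0.39 (95% confidence interval -0.71 to -0.06, adjusted p = 0.189). Srebf2 (234.3, 283.9 and 250.9 CPM in KI) differed by -0.41 (-0.79 to -0.04, adjusted p = 0.225) and overlapped with wt through wt replicate 5. Without that mouse the difference was -0.65 with an adjusted p of 0.0208. Scap (102.0, 99.1 and 103.0 CPM in KI) differed by -0.31 (-0.69 to 0.07).

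On the efflux side at 48 h, Mylip read 18.6, 13.3 and 14.2 CPM in KI against 6.96, 8.17 and 9.48 CPM in wt. The difference was 0.90 (SE 0.175, adjusted p = 0.00647), a 1.87-fold higher level. Within experiments 1, 3 and 5 it was 1.41, 0.70 and 0.59. Abca1 read 12.4, 13.5 and 8.80 CPM in KI against 6.63, 7.47 and 5.70 CPM in wt, a difference of 0.81 (SE 0.205, adjusted p = 0.0317). Both genes were thus far below their naive level in KI as in wt, and higher in KI than in wt at the end. Abcg1 read 76.7, 77.0 and 60.9 CPM in KI, above all 3 wt libraries, but its difference of 0.59 (95% confidence interval 0.04 to 1.15) had an adjusted p of 0.238. Macrophage and monocyte markers summed to 26 to 33.3 CPM in KI and 20.3 to 32 CPM in wt at 48 h, ranges that overlap. B cell markers summed to 85.3 to 188 CPM in KI and 39.6 to 119 CPM in wt; their part in these differences was not tested.

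Of these 5 calls, that of Stard4 held in all 14 alternative fits and single-mouse omissions run. The other 4 missed the threshold when only the 2 compared groups were fitted, without KI replicate 1 and without wt replicate 1, which left 1 called gene each time. Insig1 then had an adjusted p of 0.0573, 0.181 and 0.126, Mylip of 0.0882, 0.115 and 0.0998, Abca1 of 0.128, 0.227 and 0.174, and Srebf1 of 0.18, 0.247 and 0.196. Without KI replicate 3 the adjusted p was 0.166 for Abca1 and 0.095 for Srebf1, which left 3 called genes. Abca1 also missed without wt replicate 5 (adjusted p = 0.111), and Srebf1 without wt replicate 3 (0.0878) and without KI replicate 5 (0.16). All of these values kept their sign.

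**Figure D4:**
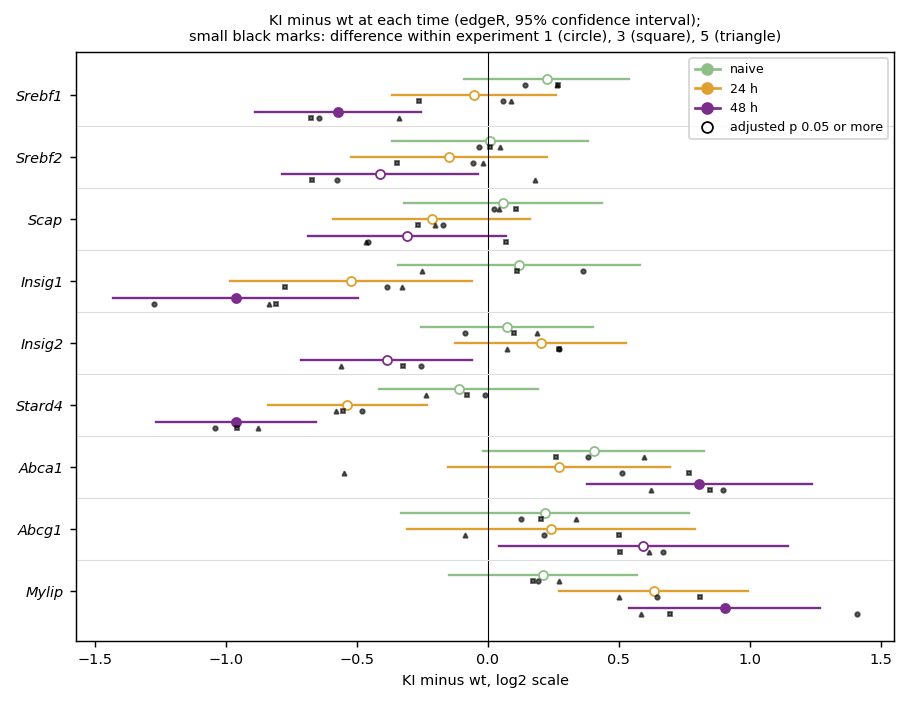
KI minus wt on the log2 scale at naive, 24 h and 48 h with 95% confidence intervals from edgeR; filled marks have an adjusted p under 0.05, and small black marks give the difference within each experiment. At 48 h Srebf1, Insig1 and Stard4 lie to the left of 0 and Abca1 and Mylip to the right.

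Whether activation itself changed a gene by a different amount in KI than in wt was tested with the interaction of genotype and time. None of the 9 was called from naive to 24 h, where 0% of all genes were called, from naive to 48 h, where 0.387% were, or from 24 h to 48 h, where 0.00472% were. The unadjusted edgeR p was under 0.05 for 0, 4 and 2 of the 9 in these 3 tests, and for 694, 2054 and 1199 of all 21183 genes. The Stard4 interaction from naive to 48 h was -0.85 (SE 0.205, 95% confidence interval -1.28 to -0.42, adjusted p = 0.0883). With the experiment as a replicate block it passed (-0.85, adjusted p = 0.0392), as it did by DESeq2 (adjusted p = 0.0186); the alternatives run gave adjusted p values between 0.0186 and 0.623. Srebf1 (-0.80, adjusted p = 0.133) passed by DESeq2 (adjusted p = 0.0307), with a range of 0.0307 to 0.716. limma called none of the 9. The interaction of Insig1 was -1.08 (-1.74 to -0.43, adjusted p = 0.174), that of Mylip 0.69 (0.18 to 1.21, adjusted p = 0.303) and that of Abca1 0.40 (-0.20 to 1.00, adjusted p = 0.72).

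A plain summary of the 2 sides is the mean log2 CPM of the 6 sensing and transport genes minus that of the 3 LXR-driven genes in each library. It describes genes grouped by their roles and carries no test. In wt it was -0.39 ± 0.12 (SD, n = 3) in naive cells, 1.92 ± 0.30 at 24 h and 3.06 ± 0.09 at 48 h. In KI it was -0.62 ± 0.05, 1.35 ± 0.14 and 1.72 ± 0.23. The KI libraries at 48 h, from 1.46 to 1.89, lay within or near the wt range at 24 h, from 1.61 to 2.22. In the libraries labelled KO it was -0.42 ± 0.10 (n = 2) in naive cells and 2.39 and 3.22 at 48 h. Over all 22 libraries the closest opposite pair was Stard4 and Mylip (r = -0.987), which remained at -0.896 after the time point means were removed.

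**Figure D5:**
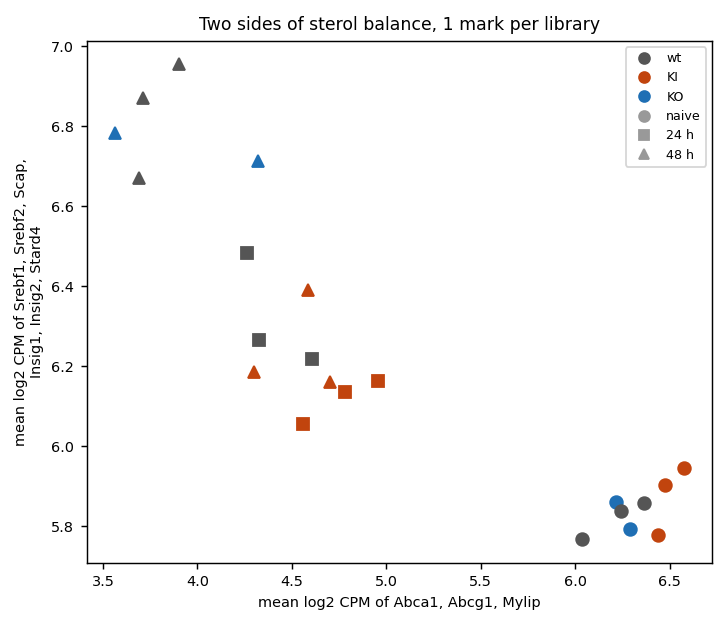
Mean log2 CPM of the 6 SREBP-side genes against that of Abca1, Abcg1 and Mylip, 1 mark per library, coloured by genotype and shaped by time. Naive libraries gather at the lower right, wt libraries at 48 h at the upper left, and KI libraries at 48 h lie among those of 24 h.

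In the libraries labelled KO, activation called 7 of the 9 genes at 48 h against naive (Srebf1, Srebf2, Insig1, Insig2 and Stard4 higher; Abca1 and Mylip lower), where 44% of all genes were called. Stard4 went from 26.2 and 28.0 CPM in replicates 1 and 5 to 120.6 and 155.7 CPM, and Mylip from 84.5 and 78.7 CPM to 8.45 and 6.85 CPM. At 48 h both genes overlapped with wt; in naive cells Mylip was above every wt library, where 9.78% of all genes failed to overlap between KO and wt. Abca1 went from 64.4 and 58.0 CPM to 7.99 and 6.10 CPM. Insig1 went from 43.8 and 39.1 CPM to 67.2 and 87.2 CPM, Srebf1 from 87.5 and 105.1 CPM to 152.0 and 122.4 CPM, and Srebf2 from 214.3 and 201.8 CPM to 388.8 and 296.8 CPM. All 3 were higher at 48 h than in naive cells in both mice. With upper-quartile factors Srebf1 (adjusted p = 0.15) and Srebf2 (0.0557) missed the threshold, and with library size alone Srebf1 did (0.0785). In these libraries B cell markers summed to 114 to 979 CPM in naive cells and 30.4 to 178 CPM at 48 h, CD4 T cell markers to 34.6 to 218 CPM and 26.6 to 166 CPM, and macrophage and monocyte markers to 95.2 to 253 CPM and 24.2 to 36 CPM; all 4, 2 and 6 markers of these lists were detected, and their part in the result was not tested. With each mouse as a replicate block within KO, 3 of 9 were called (Stard4, Abca1 and Mylip). The 2 KO libraries of 48 h lay far apart for 3 genes, picked after their values were seen. Abcg1 read 117.6 CPM in replicate 1 and 39.2 CPM in replicate 5, Scap 77.1 and 156.7 CPM, and Insig2 35.9 and 23.1 CPM. Without KO replicate 1, Abcg1 fell (-1.19, adjusted p = 0.0035), Scap rose (0.73, adjusted p = 0.00988), and Srebf1 (0.23, adjusted p = 0.499), Srebf2 (0.56, adjusted p = 0.155) and Insig2 (0.41, adjusted p = 0.153) no longer passed. Without KO replicate 5, Insig1 no longer passed (0.61, adjusted p = 0.224). No gene of the 9 was called between KO and wt by edgeR, DESeq2 or limma in naive cells, where 0.0236% of all genes were called by edgeR, or at 48 h, where 0.0283% were. The unadjusted edgeR p was under 0.05 for 0 of the 9 and 277 of all 21183 genes in naive cells, and for 1 of the 9 and 1465 of all genes at 48 h. At 48 h the difference was -0.33 for Stard4 (95% confidence interval -0.67 to 0.01), -0.10 for Mylip (-0.51 to 0.31) and 0.09 for Abca1 (-0.39 to 0.57). With replicate 1 as the lone KO library, Abcg1 (1.31, adjusted p = 0.000732), Scap (-0.71, adjusted p = 0.00862) and Insig2 (0.54, adjusted p = 0.0323) were called; the lone library is then assumed to vary like the other groups. The interaction of KO against wt from naive to 48 h called none of the 9 by any of the 3 tools, where 0% of all genes were called. None of the 9 and 492 of all 21183 genes had an unadjusted edgeR p under 0.05. With replicate 1 as the lone KO library of 48 h it called Abcg1 (1.34, adjusted p = 0.025).

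Insig1 was followed most closely over the 22 libraries by Utp14b (r = 0.94). Both LXR receptor genes were lower in wt at 48 h than in naive cells. Nr1h2 (LXRβ) read 89.6 to 112.5 CPM in naive wt and 62.8 to 74.5 CPM at 48 h, a change of -0.56 (adjusted p = 0.00129), and KI and wt differed by 0.14 at 48 h (95% confidence interval -0.13 to 0.41). Nr1h3 (LXRα), which macrophages express strongly, was low throughout, from 0.402 to 3.23 CPM, and changed by -1.20 (adjusted p = 0.0263).

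For the surrounding pathway, 6 lists were counted beside the median over all genes and the share of all genes called, which was 56.3% for wt at 48 h against naive and 4.17% for KI minus wt at 48 h. Of 21 genes of cholesterol synthesis, all 21 were higher in wt at 48 h than in naive cells (median log2 change 2.29; all genes, -0.04) and 16 were lower in KI than in wt at 48 h (median -0.996; all genes, 0). Fdft1, which makes squalene, read 20.6 ± 2.62 CPM in naive wt, 100.6 ± 4.10 CPM in wt at 48 h and 44.2 ± 4.85 CPM in KI at 48 h (KI minus wt -1.19, adjusted p = 4.9e-05). Mvd, of the mevalonate pathway, differed by -1.60 (adjusted p = 1.03e-05). Of 14 tested genes of fatty acid synthesis, 10 were higher and 2 lower in wt at 48 h than naive (median 1.29), and 6 were lower in KI than in wt (median -0.78), among them Acsl3 (-1.37, adjusted p = 0.000691) and Elovl6 (-1.002, adjusted p = 0.00681). Of 17 tested LXR receptors, cofactors and further targets, 12 were lower and 2 higher in wt at 48 h than naive (median -1.20). Arl4c fell from 730 ± 92.0 CPM to 63.4 ± 12.8 CPM (-3.53, adjusted p = 5.87e-08) and Smpdl3a by 1.84 on the log2 scale, while Scd2, a desaturase that SREBP1 also drives, rose by 3.90. Between KI and wt at 48 h only Scd2 of those 17 was called (-1.47, adjusted p = 0.0415), and none was higher; the list's median was 0.14. Arl4c differed by 0.90 with an adjusted p of 0.101. The higher Abca1 and Mylip in KI came with no called rise of another gene on that list.

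Of 24 genes of sterol uptake and transport, 8 rose and 11 fell in wt by 48 h (median -0.18), where 56.3% of all genes were called in either direction. Tmem97, a sterol-responsive regulator of NPC1, rose by 3.60 and the receptor Scarb1 by 2.198, while Osbpl5, a lipid transfer protein, fell by 1.94. In KI against wt at 48 h, where 4.17% of all genes were called, 3 of the 24 were lower, among them Lrp8 (-1.34, adjusted p = 0.00852) and Scarb1 (-0.75, adjusted p = 0.0127), and 3 were higher, among them Osbpl5 (0.75, adjusted p = 0.0042) and Snx17 (0.37, adjusted p = 0.0363). Of 21 genes of SREBP cleavage and turnover, 8 rose and 4 fell in wt by 48 h (median 0.16), a share near the 56.3% called among all genes. In KI against wt at 48 h, where 4.17% of all genes were called, 1 of the 21 was lower and 1 higher. Erlin1, which with its partner holds the SREBP complex in place, was lower (-0.49), with an edgeR adjusted p of 0.0498, just under the threshold. No alternative fit is given here for single list genes. Rnf145, a sterol-sensing ubiquitin ligase that acts on SCAP and is an LXR target in liver, was higher (0.58, adjusted p = 0.00486); it read 208.8 ± 20.98 CPM in naive wt, 122.7 ± 8.74 CPM in wt at 48 h and 184 ± 16.3 CPM in KI at 48 h. Of 12 tested genes of sterol storage and oxysterol metabolism, 5 rose and 2 fell in wt by 48 h (median 0.07), again near the share of all genes, and edgeR called none between KI and wt at 48 h. Soat1, the cholesterol-esterifying enzyme of most cells, rose by 0.64 in wt and read 71.8 ± 7.28 CPM in wt and 71.4 ± 8.78 CPM in KI at 48 h.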

How the data were processed

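Strand-specific, poly(A)-selected RNA libraries from 22 CD8+ T cell samples were sequenced as paired ends, per the labels' protocols. The submitters' processing notes name bcl2fastq 2.20.0, TopHat2 2.1.0, Bowtie2 2.2.5, SAMtools 0.1.19, featureCounts and DESeq2 1.6.3 on GRCm38/mm10; whether counting used strand is not given in the sources used here. The deposited raw counts were used for all tests. The deposited log2 values were checked to be log2 of the count divided by a size factor, plus 1, and the deposited variance-stabilised log2 values served only one alternative. The deposited FPKM were checked to be normalized counts divided by 1 length per gene, and were used only to compare levels between genes, with no test.

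Counts were fitted with edgeR 4.0.16 in R 4.3.3 (TMM factors, filterByExpr at its minimum count of 10 and total of 15, quasi-likelihood F test with robust estimation, 8 group means over all 22 libraries, 14 residual degrees of freedom). Benjamini-Hochberg adjustment ran over all 21183 tested genes, and genes with an adjusted p under 0.05 were called. Log2 CPM used a prior count of 2. Total counts of 62551905 to 93489115 per library gave each of the 9 genes at least 425 counts in every library. Counting error was not set against the spread between mice. Alternatives were other scalings, no filter, DESeq2 1.42.0, limma 3.58.1, the compared groups alone, replicate blocks and leaving out each mouse.

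The 9 genes and all lists were chosen with earlier results of these data known. Named list genes were at most 4 a list, the 2 higher and 2 lower called genes with the smallest p in KI minus wt at 48 h or else in wt at 48 h minus naive; Nr1h2, Nr1h3 and Tcaim are always named, and likeness takes the 3 genes of highest Pearson r with a mean CPM of at least 1. A few genes this rule selects are not reported here. Replicate numbers are experiment numbers in the labels, shared by KI, wt and KO mice. Of 9 same-numbered pairs, 8 had deviations from the group means correlated over 0.1 (median 0.22, lowest 0.0907). Libraries of one replicate number and genotype at different times come from the same mouse. Promoter windows are from a RefSeq table of GRCm38.p6.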

Additional observations from a re-analysis of the deposited data

How the results depend on the processing

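For the 9 genes, 35 called results gave 423 alternative values, of which 379 kept direction and call, 44 kept direction and lost the call, and none reversed. The 109 results not called gave 1431 values, of which 33 passed the threshold and 90 changed sign without passing it. Counts of called genes among the 9 changed as follows. For wt at 24 h against naive (4), the compared groups alone and each replicate block gave 5. For wt at 48 h against naive (8), upper-quartile factors gave 7. For wt at 48 h against 24 h (4), each replicate block gave 5. The compared groups alone gave 3 there, without Mylip (edgeR adjusted p = 0.139). For KI at 48 h against naive (3), upper-quartile factors gave 5, the compared groups alone 7 and the mouse as a replicate block 7. For KI at 48 h against 24 h (0), the experiment as a replicate block gave 1, DESeq2 1, limma 1 and the mouse as a replicate block 3. For KO at 48 h against naive (7), upper-quartile factors gave 5, library size alone 6, the compared groups alone 3 and the mouse as a replicate block 3. For KI minus wt at 48 h (5), the compared groups alone gave 1. For the KI interaction from naive to 48 h (0), the experiment as a replicate block gave 1 and DESeq2 2. Other calls by replicate block that changed stand beside their results in the text.

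Leaving out 1 replicate at a time gave 3 to 4 called genes for wt at 24 h against naive, 7 to 9 for wt at 48 h against naive, 1 to 4 for wt at 48 h against 24 h, 1 to 5 for KI minus wt at 48 h, 0 to 3 for KO minus wt at 48 h and 0 to 1 for the KO interaction. Over all genes, KI minus wt at 48 h called 884, against 109 with the compared groups alone, 1695 by DESeq2, 91 without KI replicate 1 and 116 without wt replicate 1. Upper-quartile factors moved the median of all genes by -0.219 for wt at 48 h against naive. The cause of these changes was not tested. Each group held 2 or 3 mice. In the main fit, p-values rest on a spread estimated over all 8 groups and in part shared across genes. That fit treats libraries of one mouse at different times as independent. Its p-values speak for these mice only.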
